A study of Mus musculus with 20 samples.

Results

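Transcript levels of 33 genes for lysosomal hydrolases, soluble and membrane proteins of the lysosome and subunits of its proton pump were followed in melb-a cells, an established line of mouse melanoblasts, the precursors of pigment cells. The genes were chosen by name, as a list of known lysosomal genes, from the 29956 genes of the deposited count table. The choice was made with earlier results of these data known. All 33 had a row, and all 33 passed the filter on low counts. They comprised 19 hydrolases, 3 soluble proteins that are no enzymes, 7 membrane proteins and 4 subunits of the vacuolar ATPase.

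Poly(A) RNA had been sequenced from 20 libraries in 5 groups of 4. The cells were wild type in all groups and grew with serum, stem cell factor and Fgf2. Parental cells received no virus. The other groups were infected with a lentivirus in the presence of polybrene and selected with puromycin. The virus carried a hairpin against luciferase (shLuciferase), a scrambled hairpin (shScramble) or either of a pair of hairpins against Hira (shHIRA I and shHIRA II). HIRA is a chaperone that places the histone variant H3.3 into chromatin outside of DNA replication. The labels do not say whether the infected cells were pools or clones, how long after infection they were collected or whether parental cells saw puromycin. Replicates are described as independent, with no word on when or from which cultures they were taken, so p-values measure the spread between these libraries only.

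Lysosomes are acidic organelles that break down protein, lipid, glycan and nucleic acid. Their hydrolases are made in the endoplasmic reticulum, tagged with mannose-6-phosphate in the Golgi and carried to the lysosome by receptors, while the vacuolar ATPase pumps in the protons that the enzymes need. Many lysosomal genes carry an E-box with the core CACGTG near their start, to which the MiT/TFE factors TFEB, TFE3 and MITF bind. MITF is also the main regulator of the melanocyte lineage, whose pigment organelle, the melanosome, is related to the lysosome.

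Promoter windows were searched for this core because the members share a described class of regulator. RefSeq windows (GRCm38.p6, from 250 bases before a start to 50 bases after it) matched 29 members by symbol. Of these 29 genes, 13 held CACGTG, a share of 44.8%, against 8.09% of 27025 genes with a window and 11.5% of the 9704 of them that were tested here. CACGTG reads the same on both strands. The longer form TCACGTG, searched on both strands and holding the shorter motif, was in 12 of the 29, or 41.4%, against 4.29% of all genes and 6.79% of those tested. Lamp1 held 4 copies of the core, Mcoln1, Ctsa, Ctsd, Cln3 and Gla held 2 each, and Gaa, Glb1, Sgsh, Naglu, Ctsl, Atp6v0d1 and Atp6v1a held 1. A match is a string of letters, not a measured binding site. The windows below were chosen to show the densest member (Lamp1) and members that did and did not change, with the core in capitals and each strand read 5′ to 3′ in the direction of the gene. The Lamp1 stretch is chr8:13159086-13159160 on the plus strand. Those of Mcoln1 are chr8:3500436-3500465 and chr8:3500462-3500491, plus strand, and that of Gaa is chr11:119267809-119267842, plus strand. The stretch around the upstream copy of Ctsa is chr2:164833749-164833778, plus strand, that of Naglu is chr11:101070009-101070038, plus strand, and that of Glb1 is chr9:114401016-114401049, plus strand.
Lamp1: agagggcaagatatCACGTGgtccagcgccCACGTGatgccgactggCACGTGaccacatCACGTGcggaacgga
Mcoln1, upstream copy: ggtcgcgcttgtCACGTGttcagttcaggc
Mcoln1, downstream copy: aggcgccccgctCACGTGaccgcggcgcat
Gaa: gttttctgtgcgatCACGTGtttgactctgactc
Ctsa: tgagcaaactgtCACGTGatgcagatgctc
Naglu: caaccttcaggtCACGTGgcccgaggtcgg
Glb1: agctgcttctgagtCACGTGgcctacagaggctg

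Libraries held 14952948 to 20669874 estimated counts. Levels are edgeR CPM, counts scaled to a common library size with TMM factors, given as mean ± SD of 4 libraries. Fold changes are on the log2 scale with their standard error, and a gene is called at a Benjamini-Hochberg adjusted p under 0.05 over all 13541 genes tested by edgeR's quasi-likelihood test. Each Hira hairpin was compared with the mean of both control hairpins.

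The targeted gene Hira was at 45.4, 26.6, 41.8 and 33.3 CPM in the 4 shHIRA I libraries and at 63.2, 63.3, 70.9 and 69.8 CPM in the 4 shHIRA II-labelled libraries. The shLuciferase libraries had 89.8, 72.2, 87.1 and 63.7 CPM, the shScramble libraries 81.7, 64.4, 71.3 and 79.0 CPM, and parental cells 81.9 to 101 CPM. Every shHIRA I library was below every other library, whereas the shHIRA II-labelled libraries overlapped the controls. Hira fell with shHIRA I (log2 fold change -1.05 ± 0.14, adjusted p = 5.2e-05). For the shHIRA II-labelled libraries the log2 fold change was -0.19 ± 0.14 (adjusted p = 0.31), so knockdown at the RNA level was not detected there by this test and the label is taken as given. With the share of mitochondrial transcripts as a covariate, Hira passed the test in these libraries (log2 fold change -0.46, adjusted p = 0.039). Their share was below that of every library without a Hira hairpin, so covariate and hairpin cannot be fully told apart.

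The share of mitochondrial transcripts was 5.50 to 9.96% in the 12 libraries without a Hira hairpin, 1.23 to 9.58% with shHIRA I and 2.88 to 4.71% in the shHIRA II-labelled libraries. The summed level of 8 melanoblast markers was 3821 to 6638 CPM in those 12 libraries, 1217 to 3788 CPM with shHIRA I and 669 to 1201 CPM in the shHIRA II-labelled libraries. Of these markers, Tyrp1, Dct, Kit, Mitf, Mlana and Pmel were measured in every library. Ednrb was at most 0.17 CPM throughout, so a listed marker of the labelled cell type was nearly absent. Sox10 ran from 0 to 29.8 CPM and was uneven between replicates of the same group, with 0.154 to 29.8 CPM in parental cells. A set of 6 fibroblast markers summed to 49.4 to 87.3 CPM without a Hira hairpin, 102 to 217 CPM with shHIRA I and 14.3 to 28.5 CPM in the shHIRA II-labelled libraries. With shHIRA I these 6 did not move together. Means of Dcn, Col1a2 and Col1a1 were above those of shLuciferase and shScramble. Mean Lum was lower (1.81 against 3.14 and 3.42 CPM) and mean Pdgfra was between them (4.16 against 4.01 and 4.95 CPM). Col3a1 was at most 1.12 CPM in any library. A set of 4 keratinocyte markers summed to 1.34 to 4.61 CPM over all libraries. A set of 7 markers of macrophages, cells rich in lysosomes, summed to at most 2.67 CPM in any library, with Cd14 and Tyrobp at 0.0624 CPM or less. In bulk RNA, fewer cells of a type and less RNA per cell cannot be told apart. The part of the melanoblast and fibroblast markers in the results that follow was not tested, and values with the mitochondrial share as a covariate are given further on.

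Most of the 33 genes were lower in the shHIRA II-labelled libraries, and fewer with shHIRA I. In the shHIRA II-labelled libraries, 21 members fell and 1, Atp6v1h, rose, where 16.7% of all genes tested were called lower and 15.7% higher. With shHIRA I, 8 members fell and 1, Grn, rose, beside 8.87% of all genes lower and 10.9% higher. The median log2 fold change of the members was -0.40 in the shHIRA II-labelled libraries and -0.20 with shHIRA I, and that of all genes was 0.02 and 0.05. The 7 members that fell with both hairpins were Ctsc, Hexa, Psap, Lamp1, Mcoln1, Npc1 and Atp6v0d1. Both comparisons share their control libraries. The 9 called with neither were Ctsl, Ctsz, Gla, Glb1, Lipa, Neu1, Cln3, Scarb2 and Cd63. The shares of all genes that fell with both or were called with neither are not given, so these counts only describe the list. With limma on log2(TPM + 1) in place of counts, 15 members were lower and 1 higher in the shHIRA II-labelled libraries, and 4 were lower and 1 higher with shHIRA I. On that scale 1649 of 4285 called genes were lower in the shHIRA II-labelled libraries, against 2262 of 4394 in the main test, and 831 of 2501 with shHIRA I, against 1201 of 2671.

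**Figure D1:**
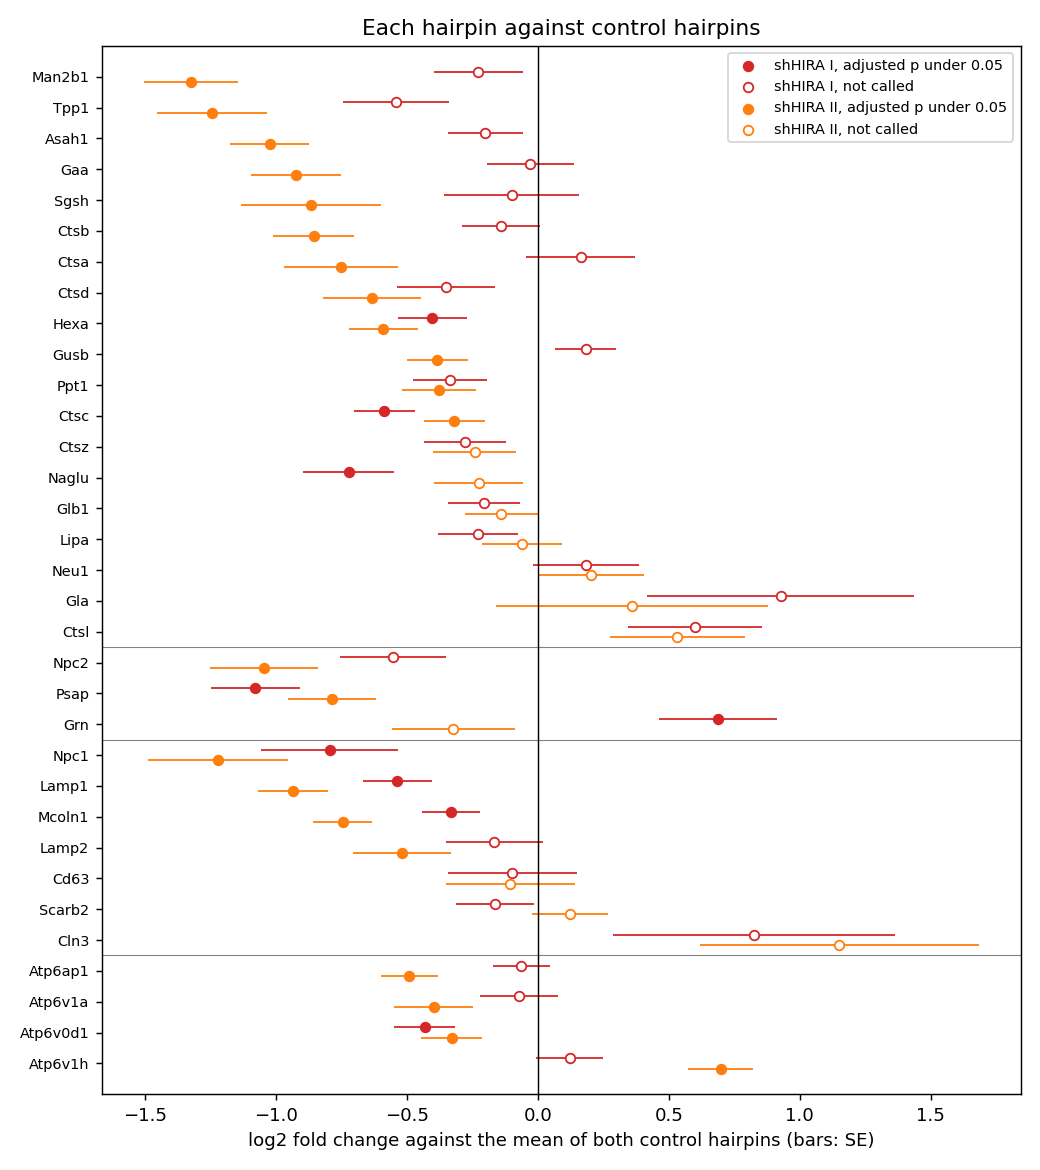
Log2 fold change (x axis) of each of the 33 members (y axis, by role and then by value) against the mean of both control hairpins, with bars for 1 standard error and filled points for an adjusted p under 0.05. In the shHIRA II-labelled libraries (orange) 21 genes lie to the left as filled points, from Man2b1 at -1.32 to Ctsc at -0.32, and with shHIRA I (red) 8 do.

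**Figure D2:**
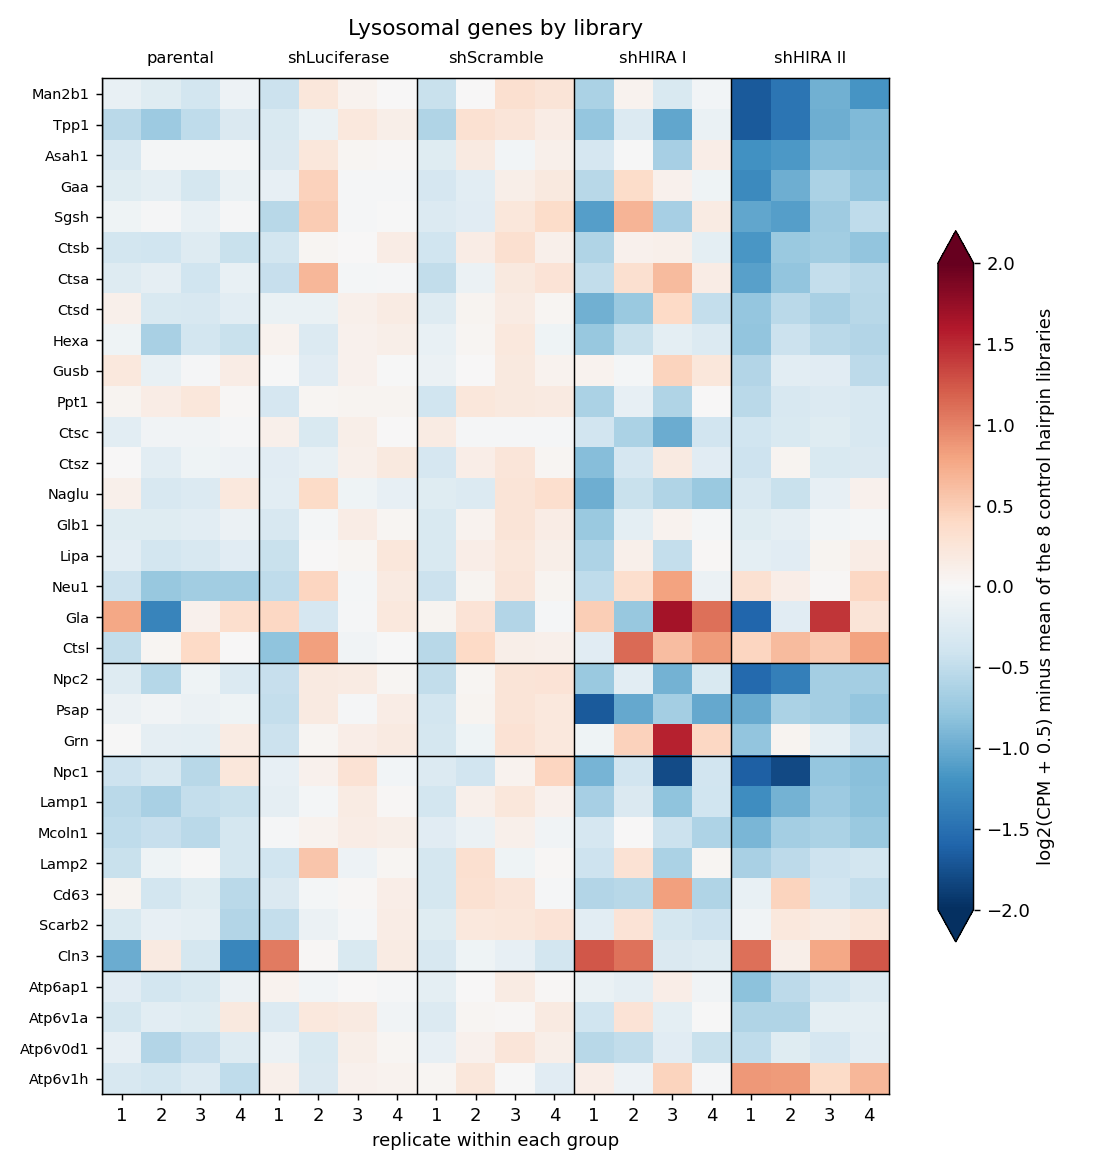
Level of each of the 33 members (rows, by role) in each of the 20 libraries (columns, replicates 1 to 4 of each group), as log2(CPM + 0.5) minus the mean of the 8 control hairpin libraries. The 4 columns labelled shHIRA II are blue for most hydrolases at the top, Atp6v1h in the last row is red there, and shHIRA I replicate 3 differs in colour from the other 3 libraries of its group for Grn, Cd63 and Ctsd.

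By level per transcript length (TPM), the members in control hairpin cells spanned from Ctsd, an aspartic protease, at 1238 ± 119 TPM (SD, n = 8) to Cln3, a membrane protein, at 0.953 ± 0.613 TPM. Lamp1, the most abundant membrane protein of the list, had 1153 ± 132 TPM and the tetraspanin gene Cd63 had 956 ± 121 TPM. Ctsd and Lamp1 differed by less than the SD of either, Lamp1 and Cd63 by more. Psap followed at 477 ± 80.6 TPM and Ctsz at 319 ± 39.9 TPM. The lowest besides Cln3 were Gla at 4.72 ± 1.18 TPM, Naglu at 11.9 ± 2.49 TPM and Sgsh at 13.4 ± 3.38 TPM, the latter pair not separated by their SD. Summed over the 33 members, the level was 5154 ± 285 TPM in parental cells, 6698 ± 614 TPM with shLuciferase, 6421 ± 779 TPM with shScramble, 5732 ± 663 TPM with shHIRA I and 4888 ± 478 TPM in the shHIRA II-labelled libraries (SD, n = 4), a sum to which Ctsd, Lamp1 and Cd63 give the most. Cln3 had at most 52.0 estimated counts in any library, and no direction could be read for it against the control hairpins at this depth (log2 fold change 0.83 ± 0.54 with shHIRA I and 1.15 ± 0.53 in the shHIRA II-labelled libraries).

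Among the 19 hydrolases, 12 fell and none rose in the shHIRA II-labelled libraries, and 3 fell with shHIRA I, with median log2 fold changes of -0.38 and -0.21. The enzymes that fell most were a lysosomal alpha-mannosidase, a tripeptidyl peptidase, acid ceramidase and acid alpha-glucosidase, whose substrates are a glycoprotein glycan, peptides, a sphingolipid and glycogen.

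Man2b1 (chromosome 8, 85083270 to 85098282, plus strand), the alpha-mannosidase, was at 63.2, 73.0, 103 and 89.4 CPM in the shHIRA II-labelled libraries (replicates 1 to 4, the order used throughout). It was at 130, 214, 165 and 195 CPM with shHIRA I, 150, 237, 212 and 204 CPM with shLuciferase and 148, 204, 253 and 242 CPM with shScramble, and at 157 to 189 CPM in parental cells. All 4 shHIRA II-labelled libraries lay below all 16 others, and of the shHIRA I libraries replicate 1 was below all controls and the other 3 were among them. Its level in the shHIRA II-labelled libraries was 39.9% (95% confidence interval 31.2 to 51.0%) of the control hairpins (log2 fold change -1.32 ± 0.18, adjusted p = 3.3e-05). With shHIRA I the log2 fold change was -0.23 ± 0.17 (adjusted p = 0.38).

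Tpp1 (chromosome 7, 105744811 to 105752235, minus strand), the tripeptidyl peptidase lost in a childhood neuronal storage disease, had 71.9, 84.2, 117 and 126 CPM in the shHIRA II-labelled libraries and 135, 191, 113 and 211 CPM with shHIRA I. Controls had 188, 212, 269 and 252 CPM with shLuciferase and 153, 288, 276 and 256 CPM with shScramble, and parental cells 140 to 191 CPM. The shHIRA II-labelled libraries were all below both control groups, but their highest value was above the lowest of shHIRA I. Tpp1 fell to 42.2% (95% confidence interval 31.7 to 56.1%) of the control level in the shHIRA II-labelled libraries (adjusted p = 2.2e-04). Its log2 fold change with shHIRA I was -0.54 ± 0.20 (adjusted p = 0.067).

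Asah1 (chromosome 8, 41340197 to 41374773, minus strand), acid ceramidase, had 108, 113, 138 and 136 CPM in the shHIRA II-labelled libraries, below all 16 other libraries. It had 197, 248, 157 and 272 CPM with shHIRA I, 203, 293, 257 and 253 CPM with shLuciferase, 210, 283, 241 and 268 CPM with shScramble and 199 to 243 CPM in parental cells. The shHIRA I libraries spread more widely than either control group and overlapped both. Asah1 was at 49.2% (95% confidence interval 40.1 to 60.3%) of the control level in the shHIRA II-labelled libraries (adjusted p = 6.2e-05), and at a log2 fold change of -0.20 ± 0.14 with shHIRA I (adjusted p = 0.36).

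Gaa (chromosome 11, 119267887 to 119285454, plus strand), which clears glycogen, had 75.4, 93.3, 118 and 106 CPM in the shHIRA II-labelled libraries against 164, 253, 181 and 180 CPM with shLuciferase and 146, 158, 200 and 210 CPM with shScramble. The shHIRA I libraries had 125, 237, 195 and 174 CPM and parental cells 145 to 168 CPM. Here too the shHIRA II-labelled libraries were below all others, and shHIRA I overlapped both control groups, with its lowest library below them. The log2 fold changes were -0.92 ± 0.17 (adjusted p = 5.3e-04) and -0.03 ± 0.16 (adjusted p = 0.93).

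The cathepsins Ctsb, a cysteine protease, and Ctsa, a carboxypeptidase that also protects other enzymes, followed that order. Ctsb (chromosome 14, 63122462 to 63145923, plus strand) had 312, 418, 436 and 406 CPM in the shHIRA II-labelled libraries, 465, 744, 756 and 615 CPM with shHIRA I, 547, 721, 706 and 776 CPM with shLuciferase, 536, 780, 875 and 756 CPM with shScramble and 515 to 586 CPM in parental cells. The shHIRA II-labelled libraries did not overlap any other group (log2 fold change -0.86 ± 0.15, adjusted p = 3.9e-04). Ctsa (chromosome 2, 164832873 to 164841032, plus strand) had 125, 155, 192 and 185 CPM in the shHIRA II-labelled libraries and 190, 336, 418 and 295 CPM with shHIRA I. Its controls had 194, 426, 259 and 264 CPM with shLuciferase and 189, 248, 308 and 325 CPM with shScramble, and parental cells 203 to 241 CPM. For Ctsa the highest shHIRA II-labelled library overlapped the lowest control (log2 fold change -0.75 ± 0.22, adjusted p = 0.012). With shHIRA I neither passed the test, at -0.14 ± 0.15 for Ctsb and 0.16 ± 0.21 for Ctsa.

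Hexa and Ctsc were the hydrolases called lower with both hairpins. Hexa (chromosome 9, 59539540 to 59565109, plus strand), the alpha subunit of beta-hexosaminidase, had 259, 322, 383 and 362 CPM with shHIRA I and 252, 325, 299 and 290 CPM in the shHIRA II-labelled libraries. It had 458, 359, 464 and 471 CPM with shLuciferase, 395, 448, 503 and 411 CPM with shScramble and 279 to 413 CPM in parental cells. The parental range overlapped both Hira hairpins, and shHIRA I also overlapped shLuciferase. Its log2 fold changes were -0.40 ± 0.13 with shHIRA I (adjusted p = 0.036) and -0.59 ± 0.13 in the shHIRA II-labelled libraries (adjusted p = 0.0024). Ctsc (chromosome 7, 88278085 to 88310888, plus strand), the dipeptidyl peptidase that activates serine proteases, had 96.1, 80.6, 62.5 and 95.3 CPM with shHIRA I and 95.2, 102, 106 and 99.6 CPM in the shHIRA II-labelled libraries. It had 134, 101, 135 and 126 CPM with shLuciferase, 140, 123, 123 and 123 CPM with shScramble and 108 to 123 CPM in parental cells. All shHIRA I libraries were below all 12 libraries without a Hira hairpin, while the shHIRA II-labelled libraries overlapped shLuciferase. Ctsc was at -0.59 ± 0.12 with shHIRA I (adjusted p = 0.0016) and at -0.32 ± 0.12 in the shHIRA II-labelled libraries (adjusted p = 0.042), and the difference between the hairpins did not pass the test (adjusted p = 0.17).

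The other hydrolases were smaller or less even changes. In the shHIRA II-labelled libraries, the hydrolases called lower besides those above were Sgsh, a heparan sulfatase (log2 fold change -0.87 ± 0.27), Ctsd (-0.63 ± 0.19), Gusb, beta-glucuronidase (-0.38 ± 0.12), and Ppt1, a thioesterase (-0.38 ± 0.14). Sgsh ran from 22.6 to 34.3 CPM there, against 33.2 to 69.4 CPM with shLuciferase, 40.2 to 63.0 CPM with shScramble and 22.5 to 78.9 CPM with shHIRA I, so that its groups overlapped. Ctsd ran from 1208 to 1413 CPM, below all 8 control hairpin libraries (1868 to 2291 and 1718 to 2299 CPM), while shHIRA I spanned 1060 to 2716 CPM, with replicate 3 at the top. Gusb had 102 ± 13.7 CPM in the shHIRA II-labelled libraries, 152 ± 22.5 CPM with shHIRA I, 130 ± 11.7 and 137 ± 12.1 CPM with the control hairpins and 138 ± 15.3 CPM in parental cells. Ppt1 ran from 81.4 to 97.6 CPM in the shHIRA II-labelled libraries and from 76.4 to 119 CPM with shHIRA I, overlapping the control hairpins at 93.2 to 123 and 89.5 to 138 CPM. Naglu is the glucosaminidase of the same heparan pathway as Sgsh. It was the single member called lower with shHIRA I and not in the shHIRA II-labelled libraries (-0.72 ± 0.17 against -0.23 ± 0.17). The difference of Naglu between the hairpins did not pass the test (adjusted p = 0.08). Naglu had 14.8 ± 2.31 CPM with shHIRA I, with every library below all 8 control hairpin libraries at 20.8 to 31.5 and 19.8 to 30.4 CPM. The other 6 hydrolases passed neither comparison. Ctsl had the highest point estimates of those at over 10 CPM, 0.60 ± 0.26 with shHIRA I and 0.53 ± 0.26 in the shHIRA II-labelled libraries (adjusted p = 0.11 and 0.12). Ctsz, Glb1, Lipa and Neu1 lay between -0.28 and 0.20 in both comparisons, and Gla, at 1.05 to 6.14 CPM in parental cells and 0.796 to 9.90 CPM in the shHIRA II-labelled libraries, was too uneven between libraries to be placed. Neu1, the sialidase that CTSA protects, had 43.1 ± 4.71 CPM in parental cells and 70.3 ± 18.6, 67.4 ± 12.4, 78.2 ± 30.8 and 79.2 ± 9.62 CPM with shLuciferase, shScramble, shHIRA I and in the shHIRA II-labelled libraries. Of the distinct 31-base stretches of Ctsd transcripts, 33.2% also occur in transcripts of Gm49369, and 7.68% of those of Ctsl and 5.13% of those of Glb1 occur in other genes, so that the values of these genes may hold reads of others.

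Of the 3 soluble proteins that are no enzymes, 2 fell in the shHIRA II-labelled libraries. Psap (chromosome 10, 60277627 to 60302597, plus strand) encodes prosaposin, which is cut into the saposins that present lipids to hydrolases. It had 332, 525, 663 and 523 CPM with shHIRA I and 527, 688, 664 and 623 CPM in the shHIRA II-labelled libraries. Controls had 763, 1210, 1044 and 1184 CPM with shLuciferase and 827, 1098, 1274 and 1233 CPM with shScramble, and parental cells 976 to 1015 CPM. No library with either Hira hairpin reached the lowest of the 12 others. Psap was at 47.3% (95% confidence interval 37.6 to 59.6%) of the control level with shHIRA I (log2 fold change -1.08 ± 0.17, adjusted p = 2.0e-04), the largest fall among the 33 members with that hairpin. Its level was 58.0% (95% confidence interval 46.2 to 72.8%) in the shHIRA II-labelled libraries (log2 fold change -0.79 ± 0.17, adjusted p = 0.0016).

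Npc2, which hands cholesterol to NPC1, was at 123 ± 37.7 CPM in the shHIRA II-labelled libraries against 250 ± 47.5 CPM with shLuciferase and 259 ± 58.0 CPM with shScramble (log2 fold change -1.05 ± 0.21, adjusted p = 8.6e-04). With shHIRA I its log2 fold change was -0.55 ± 0.20 (adjusted p = 0.06). Grn (chromosome 11, 102430315 to 102437048, plus strand), progranulin, had 231, 338, 713 and 326 CPM with shHIRA I and 142, 257, 215 and 185 CPM in the shHIRA II-labelled libraries. It had 183, 253, 270 and 280 CPM with shLuciferase, 192, 232, 301 and 285 CPM with shScramble and 216 to 275 CPM in parental cells. One shHIRA I library, replicate 3, stood far above the other 3, of which 1 lay within the controls. Grn was called higher with shHIRA I (0.69 ± 0.23, adjusted p = 0.039). Without shHIRA I replicate 3 the log2 fold change was 0.25, adjusted p = 0.35. For the shHIRA II-labelled libraries Grn was at -0.32 ± 0.23 (adjusted p = 0.31).

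Among the 7 membrane proteins, 4 fell in the shHIRA II-labelled libraries and 3 of them, Npc1, Lamp1 and Mcoln1, also with shHIRA I. Lamp1 (chromosome 8, 13159161 to 13175338, plus strand) encodes a heavily glycosylated protein of the lysosomal membrane. It had 1381, 1802, 1253 and 1661 CPM with shHIRA I and 922, 1136, 1328 and 1242 CPM in the shHIRA II-labelled libraries, against 1944, 2128, 2454 and 2227 CPM with shLuciferase and 1702, 2348, 2558 and 2321 CPM with shScramble. Parental cells had 1407 to 1614 CPM, below all 8 control hairpin libraries and within the range of shHIRA I. The shHIRA II-labelled libraries were below all parental and control hairpin libraries, and 1 shHIRA I library overlapped shScramble. Lamp1 was at 69.0% (95% confidence interval 57.7 to 82.4%) of the control hairpins with shHIRA I (-0.54 ± 0.13, adjusted p = 0.0067) and at 52.4% (95% confidence interval 43.7 to 62.8%) in the shHIRA II-labelled libraries (-0.93 ± 0.13, adjusted p = 5.0e-05).

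Mcoln1 (chromosome 8, 3500457 to 3515232, plus strand), the calcium channel of the lysosomal membrane, had 68.2, 86.5, 64.2 and 56.3 CPM with shHIRA I and 45.7, 53.9, 55.4 and 51.8 CPM in the shHIRA II-labelled libraries. It had 85.4, 90.9, 95.5 and 94.1 CPM with shLuciferase, 73.9, 80.1, 92.4 and 82.0 CPM with shScramble and 59.6 to 67.7 CPM in parental cells. The shHIRA II-labelled libraries were below all others, whereas shHIRA I replicate 2 lay among the controls. The fall was -0.75 ± 0.11 in the shHIRA II-labelled libraries (adjusted p = 8.6e-05) and -0.33 ± 0.11 with shHIRA I (adjusted p = 0.041). Against parental cells, which had less Mcoln1 than the control hairpins, the log2 fold change with shHIRA I was 0.13 ± 0.13, so its direction there depends on the reference.

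Npc1 (chromosome 18, 12189692 to 12236400, minus strand), the cholesterol exporter that takes its cargo from NPC2, had 74.5, 110, 40.8 and 110 CPM with shHIRA I and 45.6, 40.7, 83.4 and 79.8 CPM in the shHIRA II-labelled libraries. It had 127, 153, 175 and 138 CPM with shLuciferase, 118, 110, 151 and 192 CPM with shScramble and 97.2 to 168 CPM in parental cells. The shHIRA II-labelled libraries lay below all 12 libraries without a Hira hairpin, and a pair of shHIRA I libraries were level with the lowest shScramble library. Npc1 fell in the shHIRA II-labelled libraries (log2 fold change -1.22 ± 0.27, adjusted p = 0.0019) and at -0.80 ± 0.26 with shHIRA I (adjusted p = 0.038). Lamp2, the partner of Lamp1, fell in the shHIRA II-labelled libraries (log2 fold change -0.52 ± 0.19), where it had 210 to 257 CPM and overlapped the controls at 251 to 486 and 258 to 415 CPM. Scarb2, the carrier of glucocerebrosidase, and Cd63 passed neither comparison, with log2 fold changes from -0.16 to 0.12. Cd63 reached 1344 CPM in shHIRA I replicate 3 and 499 to 1344 CPM over that group, and 15.9% of its 31-base stretches are shared with other transcripts, mainly of the pseudogene Cd63-ps.

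**Figure D3:**
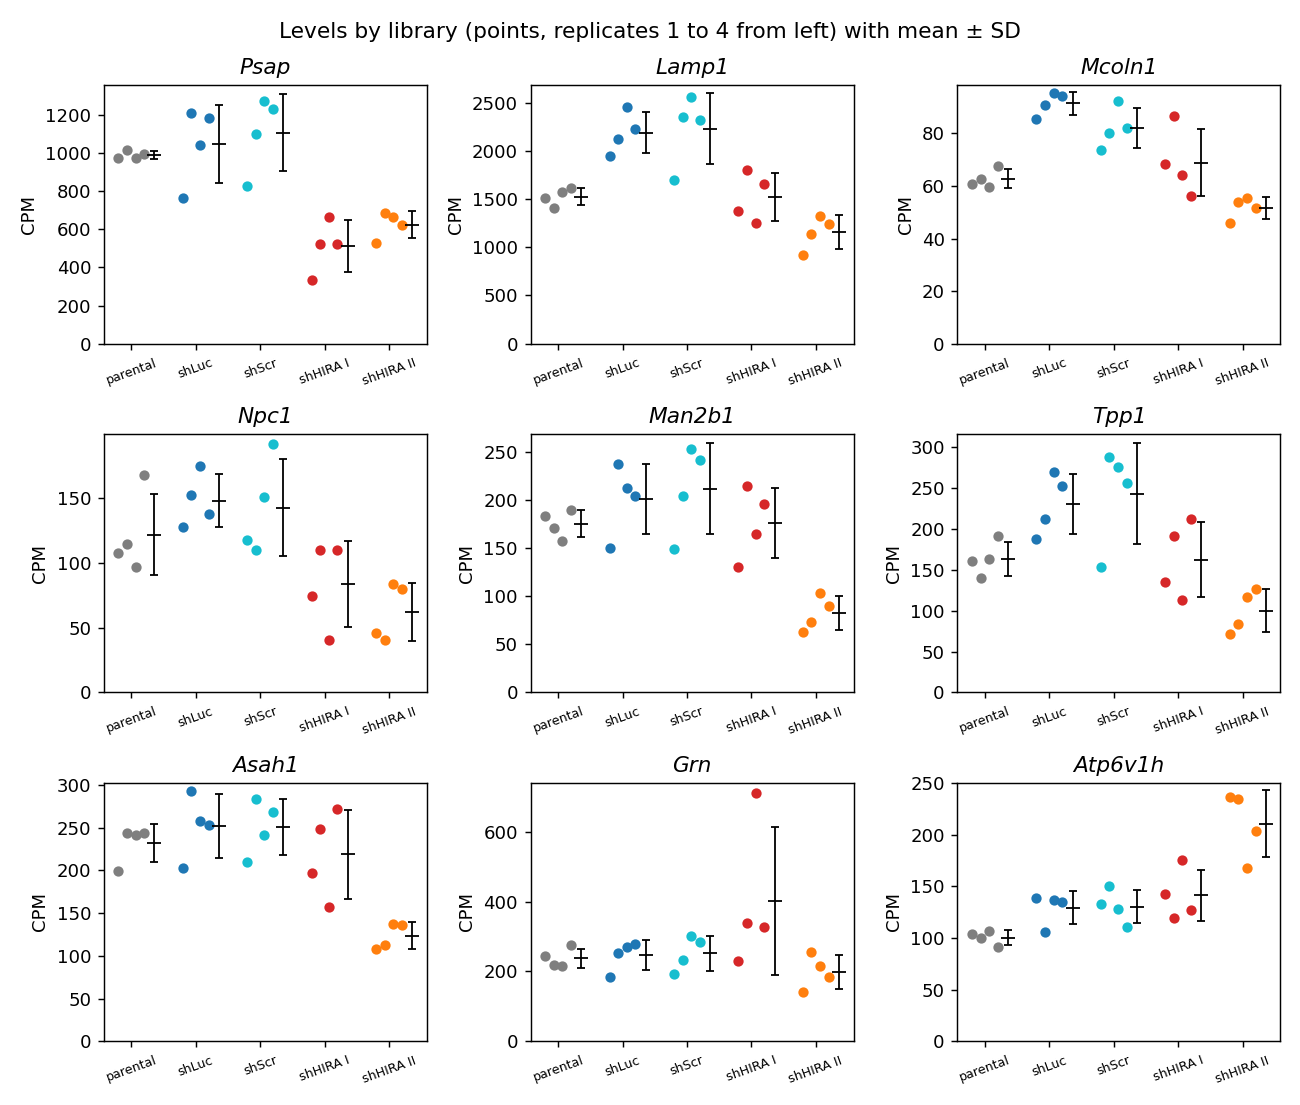
Level in CPM (y axes, from 0) of 9 members in the 5 groups (x axes), with points for libraries (replicates 1 to 4 from left) and black bars for mean ± SD. Psap and Lamp1 are lower with both Hira hairpins, Man2b1, Tpp1 and Asah1 are lowest in the shHIRA II-labelled libraries, Grn has 1 high shHIRA I library at 713 CPM, and Atp6v1h is highest in the shHIRA II-labelled libraries.

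The 4 subunits of the vacuolar ATPase did not move together. Atp6v1h (chromosome 1, 5070018 to 5162529, plus strand), the regulatory H subunit of the cytosolic part, was the member that rose in the shHIRA II-labelled libraries, with 237, 235, 168 and 204 CPM. It had 142, 120, 176 and 127 CPM with shHIRA I, 139, 106, 137 and 135 CPM with shLuciferase, 133, 150, 128 and 111 CPM with shScramble and 91.1 to 107 CPM in parental cells. Every shHIRA II-labelled library was above every control and parental library, and the lowest of them was below the highest shHIRA I library. Its level was 162% (95% confidence interval 137 to 192%) of the control hairpins (0.70 ± 0.13, adjusted p = 3.7e-04), and with shHIRA I the log2 fold change was 0.12 ± 0.13 (adjusted p = 0.55). Atp6v0d1, a subunit of the membrane part, fell with shHIRA I (log2 fold change -0.43 ± 0.12, adjusted p = 0.013), and was at -0.33 ± 0.12 in the shHIRA II-labelled libraries (adjusted p = 0.037). Atp6v1a, the catalytic subunit, and Atp6ap1, an accessory subunit, fell in the shHIRA II-labelled libraries, with log2 fold changes of -0.40 ± 0.15 and -0.49 ± 0.11. With shHIRA I they were at -0.07 ± 0.15 and -0.06 ± 0.11. Atp6ap1 had 96.7 to 141 CPM in the shHIRA II-labelled libraries, below all 8 control hairpin libraries at 164 to 179 and 148 to 190 CPM and overlapping parental cells at 132 to 157 CPM, and it had 150 to 187 CPM with shHIRA I. For Atp6v0d1 and Atp6v1a each Hira hairpin overlapped the control hairpins.

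Whether the hairpins differed was tested directly, as shHIRA II minus shHIRA I. In this comparison 10 members were lower and 1 higher in the shHIRA II-labelled libraries, where 12.4% of all genes were lower and 8.6% higher. The largest differences were those of Man2b1 (-1.10 ± 0.20, adjusted p = 8.7e-04), Grn (-1.01 ± 0.27, adjusted p = 0.012), Ctsa (-0.92 ± 0.24, adjusted p = 0.012) and Gaa (-0.90 ± 0.19, adjusted p = 0.0029). Asah1, Ctsb, Tpp1, Gusb, Atp6ap1 and Mcoln1 were lower as well, with log2 differences from -0.82 to -0.41, and Atp6v1h was higher at 0.58 ± 0.15. Of the 10 lower members, 7 were hydrolases. Of the genes that fell with both hairpins, Mcoln1 was the one with a called difference. The difference was 0.29 ± 0.19 for Psap, -0.40 ± 0.15 for Lamp1 and -0.43 ± 0.29 for Npc1, none of which passed the test (adjusted p = 0.29, 0.064 and 0.33). More members were called in the shHIRA II-labelled libraries, where the main test did not call Hira lower, than with shHIRA I, where it did. Over all genes, 4394 were called in the shHIRA II-labelled libraries and 2671 with shHIRA I. The cause was not tested.

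Parental cells give a second reference. Against them, 2 members, Lamp1 (0.53 ± 0.13, adjusted p = 0.028) and Mcoln1 (0.47 ± 0.11, adjusted p = 0.024), were higher in the control hairpins and none was lower, with 2.05% of all genes higher and 1.57% lower. The median of the members was 0.25, and 3 of 33 point estimates were below 0, against a median of 0.01 over all genes. Both calls ended when single libraries were left out, with 0 calls without parental replicate 1, 2 or 3, shLuciferase replicate 3 or 4, or shScramble replicate 3, and 1 call without parental replicate 4 or shScramble replicate 2. DESeq2 called 4 members there and limma on log2(TPM + 1) called 5. Of all 13541 genes, DESeq2 called 868 and limma 316 in this comparison, against 490 in the main test. Between shScramble and shLuciferase no member and 0% of all genes passed edgeR's test, in which 0 members and 170 genes had an unadjusted p under 0.05. DESeq2 called 4 genes there, none of them a member.

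Measured from parental cells, fewer members were lower with the Hira hairpins. With shHIRA I, 3 of the 33 members were lower than parental cells, a share near the 6.82% of all genes. They were Ctsc (-0.49), Naglu (-0.65) and Psap (-0.96), all among the 8 called lower against control hairpins. Neu1 and Atp6v1h were higher with shHIRA I than in parental cells, beside 9.95% of all genes. In the shHIRA II-labelled libraries, 11 of the 33 members were lower than parental cells, beside 14.9% of all genes. All 11 were among the 21 called lower against control hairpins. They ran from Man2b1 (-1.09), Npc1 (-0.97) and Asah1 (-0.91) to Lamp1 (-0.40). Neu1, Cln3 and Atp6v1h were higher there, beside 14.4% of all genes, with Atp6v1h at 1.07 ± 0.15. Lamp1 was level with parental cells under shHIRA I (-0.00 ± 0.15). Against shLuciferase and shScramble taken singly, Psap and Lamp1 were the members called lower in all 4 comparisons of a Hira hairpin with a control hairpin. The share of all genes called lower in all 4 is not given.

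Single libraries carried part of these counts. When each library was left out in turn, 5 of the 8 falls with shHIRA I were called every time, those of Ctsc, Naglu, Psap, Lamp1 and Atp6v0d1. The fall of Hexa was not called without shLuciferase replicate 1, 3 or 4, shScramble replicate 3, or shHIRA I replicate 1 or 2 (adjusted p = 0.052 to 0.13). That of Mcoln1 was not called without shLuciferase replicate 3 or 4, shScramble replicate 3 or 4, or shHIRA I replicate 1, 3 or 4 (adjusted p = 0.057 to 0.15). That of Npc1 was not called without shLuciferase replicate 3, shScramble replicate 3 or 4, or shHIRA I replicate 1 or 3 (adjusted p = 0.058 to 0.096). The rise of Grn was lost without parental replicate 1 or 3, shLuciferase replicate 1 or 3, shScramble replicate 1 or 2, or shHIRA I replicate 3 (adjusted p = 0.051 to 0.35). The count of falls with shHIRA I was 5 without shLuciferase replicate 3, shScramble replicate 3 or shHIRA I replicate 1. Over all genes tested, 974, 1017 and 907 were lower in these settings, against 1201 in the main test.

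Of the 21 falls in the shHIRA II-labelled libraries, 12 were called whichever library was left out, those of Tpp1, Asah1, Ctsb, Gaa, Hexa, Man2b1, Psap, Npc2, Lamp1, Mcoln1, Npc1 and Atp6ap1. Without shHIRA II replicate 1 the count was 12, and Ctsa (adjusted p = 0.061), Ctsd (adjusted p = 0.062), Gusb, Sgsh, Ctsc, Ppt1, Lamp2, Atp6v0d1 and Atp6v1a were not called. Over all genes tested, 1623 were lower in that setting, against 2262 in the main test. Gusb was also lost without shHIRA II replicate 4 (adjusted p = 0.085 to 0.11) and Sgsh without shHIRA II replicate 2 (adjusted p = 0.064 to 0.067). Ctsc, Ppt1, Lamp2 and Atp6v0d1 were lost without any 1 of the 4 shHIRA II-labelled libraries, and Atp6v1a without replicate 1, 2 or 4. Among the controls, Ctsc was lost without replicate 1, 3 or 4 of either group (adjusted p = 0.052 to 0.15 over all its losses). Ppt1 was lost without replicate 2, 3 or 4 of either control hairpin or parental replicate 2 or 4 (adjusted p = 0.054 to 0.17). Lamp2 was lost without replicate 2 or 4 of either (adjusted p = 0.057 to 0.13) and Atp6v0d1 without replicate 3 or 4 of either (adjusted p = 0.054 to 0.17). Atp6v1a was lost without replicate 2, 3 or 4 of either, parental replicate 2 or shHIRA I replicate 4 (adjusted p = 0.053 to 0.18). Of the 11 differences between the hairpins, 6 were left without shHIRA II replicate 1, those of Asah1, Ctsb, Gaa, Gusb, Man2b1 and Atp6v1h, which were called whichever library was removed. Those of Ctsa (adjusted p = 0.05), Grn (adjusted p = 0.053), Atp6ap1 (adjusted p = 0.10), Tpp1 and Mcoln1 were lost. Over all genes tested, 1997 differences were called without shHIRA II replicate 1, against 2845 in the main test. Tpp1 was also lost without shHIRA I replicate 2 or 4 or shHIRA II replicate 2 (adjusted p = 0.097 to 0.13), and Mcoln1 without shHIRA I replicate 2 or shHIRA II replicate 4 (adjusted p = 0.068 to 0.11).

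With the mitochondrial share as a covariate, values moved in both directions. In the shHIRA II-labelled libraries 15 members were then lower and 3 higher, and their median log2 fold change went from -0.40 to -0.61. Of all 13541 genes, 2767 were then called there and 1531 of these were lower, against 2262 lower of 4394 in the main test. Lamp2 had a log2 fold change of -0.01, adjusted p = 0.97 there, Sgsh had -0.36, adjusted p = 0.40 and Ppt1 had -0.18, adjusted p = 0.51. Npc1 at -0.91, adjusted p = 0.056, Ctsa at -0.78, adjusted p = 0.054, Atp6v1a at -0.26, adjusted p = 0.34 and Ctsc at -0.28, adjusted p = 0.21 also lost their calls. Other members were further down, such as Ctsd at -1.07, adjusted p = 6.4e-04, Gusb at -0.63, adjusted p = 0.002 and Grn at -0.82, adjusted p = 0.025, the last of which gained a call. Ctsl and Cln3 were called higher beside Atp6v1h. With shHIRA I, 7 members were lower and 1, Ctsl, was higher. Of all genes, 3105 were called with this hairpin and 1512 of these were lower, against 1201 lower of 2671 in the main test. Mcoln1 (-0.29, adjusted p = 0.083), Npc1 (-0.66, adjusted p = 0.087) and Grn (0.32, adjusted p = 0.30) lost their calls and Ctsd gained one (-0.68, adjusted p = 0.0056). The 4 shHIRA II-labelled libraries lay below all 12 libraries without a Hira hairpin in this share, so the covariate and this hairpin cannot be fully told apart.

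The members also moved together within groups. In each transduced group, replicate 1 was the lowest of the 4 libraries for most members, for 25 of 33 with shLuciferase, 27 with shScramble, 18 with shHIRA I and 25 in the shHIRA II-labelled libraries. In parental cells it was the lowest for 6. The median log2 ratio of a member to the rest of its group in these 4 libraries was -0.37, -0.46, -0.43 and -0.27, and -0.01 in parental replicate 1. Man2b1, for example, was at 150 CPM in shLuciferase replicate 1 and 148 CPM in shScramble replicate 1, while the other 6 control hairpin libraries had 204 to 253 CPM. Without these 4 first libraries, an alternative chosen after seeing the data, 17 members were lower in the shHIRA II-labelled libraries and 9 with shHIRA I, and 7 differed between the hairpins. Of 13652 genes tested in that setting, 1946 were lower in the shHIRA II-labelled libraries and 985 with shHIRA I, and 2139 differed between the hairpins. The labels give no batch, date or pairing for the numbers, and the source of this offset was not tested. The same count over all genes is not given, so whether the offset is particular to the members was not tested either.

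**Figure D4:**
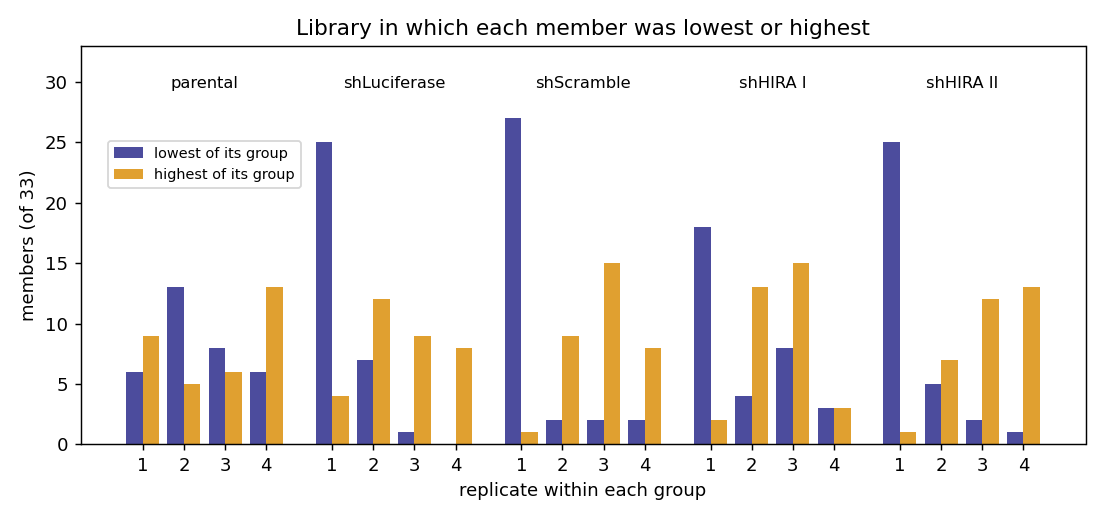
Number of the 33 members (y axis) for which a library had the lowest (blue) or highest (yellow) CPM of its group, for replicates 1 to 4 of each group (x axis). Replicate 1 has the tallest blue bar in the 4 transduced groups, 25, 27, 18 and 25 members, and 6 in parental cells. The same count over all genes is not given.

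Other genes of the same pathway came from lists of textbook members, also chosen with earlier results of these data known. By count they were also lower in the shHIRA II-labelled libraries, beside the 16.7% of all genes lower and 15.7% higher there. They were less evenly so with shHIRA I, where 8.87% of all genes were lower and 10.9% higher. Of 26 tested hydrolases and activators outside the members, 14 fell and 1 rose in the shHIRA II-labelled libraries, and 2 fell and 2 rose with shHIRA I, a share no higher than that of all genes (medians -0.58 and -0.08). The largest were Ids, a sulfatase (-1.59 ± 0.25), Arsb, arylsulfatase B (-1.26 ± 0.14), and Sumf1, which activates sulfatases (-1.08 ± 0.19), all in the shHIRA II-labelled libraries. Of 23 other membrane proteins, 11 fell and 1 rose there, and 1 fell and 2 rose with shHIRA I, again no more than over all genes. The cation channel gene Mcoln3 (-1.68 ± 0.22), the potassium and proton channel gene Tmem175 (-1.65 ± 0.25) and the cystine exporter gene Ctns (-1.25 ± 0.18) changed most.

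Of 18 other tested subunits of the vacuolar ATPase, 9 fell and 1 rose in the shHIRA II-labelled libraries and 7 fell and 2 rose with shHIRA I. Atp6v1c2, a C subunit variant, rose with both (2.35 ± 0.69 and 3.27 ± 0.68). The size of this rise depended on the control hairpin. It was 1.30 and 2.22 against shLuciferase alone, where no subunit of this list was called higher. Against shScramble alone it was 3.40 and 4.32. Atp6v0d2, the tissue-restricted relative of Atp6v0d1, fell in the shHIRA II-labelled libraries (-2.68 ± 0.58). Against parental cells, no subunit of this list had a log2 fold change below -0.99 there. The size of the fall of Atp6v0d2 thus depends on the reference. Atp6v1g1, a G subunit, fell more with shHIRA I (-1.73 ± 0.16) than in the shHIRA II-labelled libraries (-0.56 ± 0.15), a difference that passed the test (1.17 ± 0.18, adjusted p = 2.0e-04).

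Of 18 genes for sorting to the lysosome, 9 fell and 1 rose in the shHIRA II-labelled libraries, and 3 fell and 1 rose with shHIRA I. Sort1, the receptor sortilin, fell with both (-0.88 ± 0.19 with shHIRA I and -1.74 ± 0.20 in the shHIRA II-labelled libraries), and Gnptab, the enzyme that starts the mannose-6-phosphate tag, fell in the latter (-1.19 ± 0.20), as did Ap3b1, of a coat that carries cargo to lysosomes and melanosomes (-0.90 ± 0.16). Of 16 tested MiT/TFE factors and their regulators, 5 fell in the shHIRA II-labelled libraries and 2 with shHIRA I, and none rose. Mitf fell in the shHIRA II-labelled libraries (-1.90 ± 0.22, adjusted p = 8.8e-06) and had -0.53 ± 0.21 with shHIRA I (adjusted p = 0.081). Rragd, a Rag GTPase, fell with both (-0.63 ± 0.18 and -0.85 ± 0.19), and Fnip1, a folliculin partner, fell in the shHIRA II-labelled libraries (-0.79 ± 0.19). Of 16 autophagy genes, 4 were lower and 3 higher in the shHIRA II-labelled libraries and 1 each way with shHIRA I, counts near or below the shares of all genes. Uvrag, of the PI3 kinase complex, fell (-1.46 ± 0.38), while the cargo receptor gene Sqstm1 (1.04 ± 0.18) and Atg5, of the conjugation system (0.97 ± 0.12), rose in the shHIRA II-labelled libraries.

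**Figure D5:**
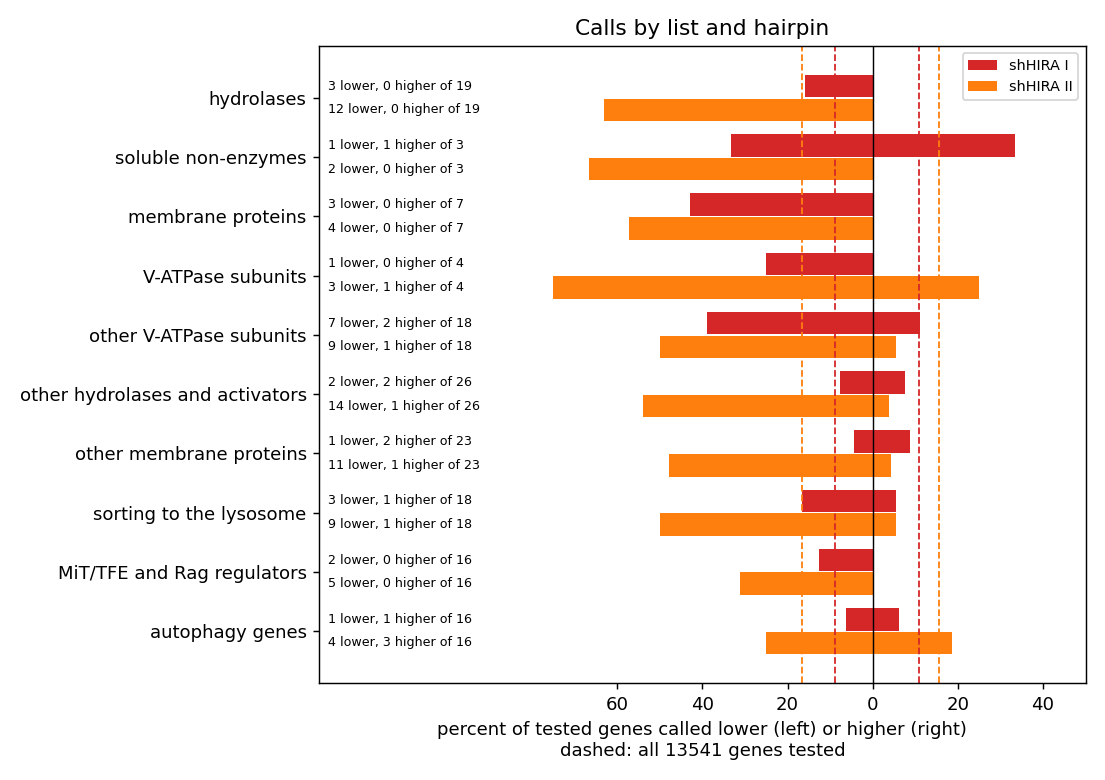
Percent of the tested genes of each list (y axis) that were called lower (left of 0) or higher (right of 0) with shHIRA I (red) and in the shHIRA II-labelled libraries (orange), with the counts printed at the left edge and dashed lines for all 13541 genes. In the shHIRA II-labelled libraries each bar of lower calls passes the dashed line at 16.7%, with autophagy genes (4 of 16) closest to it, while with shHIRA I other hydrolases (2 of 26), other membrane proteins (1 of 23) and autophagy genes (1 of 16) stay under the line at 8.87%.

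Members with and without the E-box core had overlapping ranges of change. Members with CACGTG in the window (13) had a median log2 fold change of -0.40 in the shHIRA II-labelled libraries, and the 16 without it -0.38, with 8 and 10 called lower. With shHIRA I the medians were -0.10 and -0.23, with 4 and 3 called lower. For the longer TCACGTG the medians were -0.52 in the 12 with it and -0.38 in the 17 without it in the shHIRA II-labelled libraries, and -0.15 and -0.23 with shHIRA I. These are descriptions with no test. Lamp1, with 4 copies in the stretch shown above, fell with both hairpins, as did Mcoln1 with 2, whereas Glb1, Cln3 and Gla, which hold it too, passed neither comparison. Psap, Man2b1 and Tpp1, among the largest falls, have no copy in their windows. Asah1, Ctsb, Npc1 and Atp6v1h had no window in the table.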

How the data were processed

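The authors deposited a table of estimated counts and a table of TPM per gene. The tools listed in the submitters' processing notes are kallisto, bcl2fastq and edgeR, and the build is mm10, with no versions, annotation or strand setting. Each deposited count equals the TPM times 1 length per gene and 1 factor per library (SD at most 2.5e-09 on the log2 scale, 10787 genes). Parental values were taken from control columns that name no hairpin, and shHIRA I values from shHIRA columns with no numeral, in each case the one group left. Positions are from GENCODE M21 on GRCm38 (mm10).

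Estimated counts were rounded and tested with edgeR 4.0.16 in R 4.3.3 (quasi-likelihood, TMM, filterByExpr with a minimum count of 10, group means over 20 libraries), which left 13541 of 29956 genes. The code was tested on simulated data. Alternatives used DESeq2 1.42.0 and limma 3.58.1. On the TPM scale a pseudocount of 1 or 0.1 was added before log2. No 2 libraries of a group agreed within sampling noise. The 95% intervals come from the log2 fold change and its standard error.

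Members and lists were chosen with earlier results of these data known. Values in every library are given for members called in 1 direction with both hairpins or called between the hairpins, up to 14 by size of change, and for the top member of each role. Up to 3 genes of each pathway list, the largest among those called, are named.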

Additional observations from a re-analysis of the deposited data

Results flagged for a closer look

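Single libraries stood apart from the other 3 of their group for 8 of 159 member and group combinations at or above 1 CPM, by the share of the range that separated the extreme library from its nearest neighbour. Chance flags about 1 in 20 such groups. The low ones were Asah1 in parental replicate 1 (199 CPM), Hexa in shLuciferase replicate 2 (359 CPM), Atp6v1h in shLuciferase replicate 2 (106 CPM), Ppt1 in shLuciferase replicate 1 (93.2 CPM) and in shScramble replicate 1 (89.5 CPM), and Scarb2 in shScramble replicate 1 (204 CPM). The high ones were Ctsc in shScramble replicate 1 (139.6 CPM) and Cd63 in shHIRA I replicate 3 (1344 CPM). Of these 8 values, 5 came from a replicate 1.

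The hairpins differed from each other in 11 members, as the test of shHIRA II minus shHIRA I showed directly. The log2 differences were -1.10 for Man2b1, -1.01 for Grn, -0.92 for Ctsa, -0.90 for Gaa, -0.82 for Asah1, -0.71 for Ctsb and -0.70 for Tpp1. They were -0.57 for Gusb, -0.43 for Atp6ap1, -0.41 for Mcoln1 and 0.58 for Atp6v1h. Hira itself was higher in the shHIRA II-labelled libraries than with shHIRA I (0.86 ± 0.16, adjusted p = 9.6e-04).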

How the results depend on the processing

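Depth (14952948 to 20669874 counts) and the 4 libraries in each group bound what the test could call. Falls with shHIRA I numbered 8 in the main test, 4 on log2(TPM + 1) and 4 on log2(TPM + 0.1), 5 against shLuciferase alone, 5 against shScramble alone and 3 against parental cells, and 5 to 11 when 1 library was left out. Over all genes tested, these falls numbered 1201, 831, 835, 766, 939, 923 and 907 to 1603, in the same order. Falls in the shHIRA II-labelled libraries numbered 21, 11 against parental cells and 12 to 21 with 1 library left out. Over all genes tested, they numbered 2262, 2020 and 1623 to 2871, in the same order. Differences between the hairpins numbered 11, 6 to 14 with 1 library left out, and 7 without the first library of each transduced group. Over all genes tested, such differences numbered 2845, 1997 to 4430 and 2139, in the same order. Calls between control hairpins and parental cells numbered 2, 4 with DESeq2, 5 on log2(TPM + 1) and 5 on log2(TPM + 0.1), 0 with no filter on low counts, 4 with the mitochondrial share as covariate, 5 without the first library of each transduced group, and 0 to 3 with 1 library left out. Over all genes tested, the calls in these settings up to the first libraries numbered 490, 868, 316, 425, 342, 798 and 600, in the same order. The median of the members with shHIRA I was -0.20 against control hairpins and 0.073 against parental cells. That in the shHIRA II-labelled libraries was -0.40, and -0.61 with the mitochondrial share as covariate. With 1 library left out, these medians ran from -0.27 to -0.11 and from -0.47 to -0.31. Against parental cells the sign turned for Mcoln1 with shHIRA I (0.13) and Atp6v0d1 in the shHIRA II-labelled libraries (0.038). The cause was not tested. Of 3366 values of single members under alternatives, 201 lost and 47 gained a call, and 87 values never called changed sign. Same-numbered libraries were not treated as pairs, since the labels give no shared source and only 17 of 40 same-numbered pairs correlated above 0.1 (range -0.31 to 0.42). As a hint from the data, not the design, 13 of 20 libraries correlated best with their own number. With the replicate number as a block, 11 members fell with shHIRA I and 21 in the shHIRA II-labelled libraries, 12 differed between the hairpins and 2 between control hairpins and parental cells. The same counts over all 13541 genes were 1410, 2420, 3147 and 607.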
